A study of Mus musculus with 12 samples.

Results

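The zinc finger protein genes numbered Zfp400 to Zfp999 were compared between the hippocampi of MSN mice and ICR mice. They were chosen by a rule on gene names that uses no measured values, although it was written with earlier results of Zfp459 and Zfp729a known. The rule takes the genes with a platform symbol between Zfp400 and Zfp999, a letter after the number included, and with a transcript cluster, the set of probes that stands for a gene on the array, that names no other gene. There were 210 such genes among the 19938 gene symbols with a single-gene cluster. They were measured by 223 single-gene clusters, and for the 10 genes with several of these the one with the highest mean was used. No filter on low values was applied, so all 210 were tested. A further 23 symbols in the number range stand only in clusters that also name another gene, and these were left out. Of the 210 genes, 23 are also named in such shared clusters, whose values were not used for them.

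MSN (Madison) is an inbred strain with a manic phenotype, derived over many generations from the outbred hsd:ICR (ICR) line, which served as its control. Total RNA of the macrodissected hippocampus was hybridised to Affymetrix Mouse Gene 1.0 ST arrays for 6 MSN and 6 ICR adult males with 1 array per mouse, and no treatment is given for either strain. MSN is a single, highly inbred strain, so its 6 mice are separate animals of a largely shared genetic background, while outbred ICR mice differ from each other. The paper describes MSN as almost but not fully inbred, so MSN mice may still differ at some loci. Intensities are on a linear scale, 16 was added before taking log2, and every log2 fold change is MSN minus ICR on that scale, so that changes of dim genes come out smaller than they are.

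Most genes with this kind of symbol encode proteins with C2H2 zinc fingers, small folds held by a zinc ion that read short stretches of DNA. Many also carry a KRAB domain, which recruits the corepressor Trim28 and with it the histone methyltransferase Setdb1, and a main known task of KRAB zinc finger proteins is the silencing of transposable elements. Their genes lie in clusters that arose by repeated duplication, so neighbours are often near copies of each other.

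Of the 210 genes, 97 lay in 16 runs of at least 3, counted as neighbours with no more than 5 other protein-coding genes between them. The longest run, 15 genes on chromosome 13 from Zfp708 to Zfp738, held both of the genes with the lowest p values, Zfp729a and Zfp459. It surrounds Rsl1, a KRAB zinc finger gene known for repressing male-specific genes of the mouse liver. The promoters of 5 genes of this run are shown because this run held a called gene in each direction, Zfp729a and Zfp459, and because Zfp738 and Zfp874a have promoters much like those of Zfp729a and Zfp874b. They come from RefSeq on GRCm38.p6, run from 250 bases before to 50 bases after the gene start, and are all on the minus strand, written 5′ to 3′. Capitals mark the longest stretch that a promoter shares without a mismatch with its closest match among the printed genes. For Zfp459, which has several equally long stretches, they mark the stretch shared with Zfp456.
Zfp729a, chr13:67637732-67638031: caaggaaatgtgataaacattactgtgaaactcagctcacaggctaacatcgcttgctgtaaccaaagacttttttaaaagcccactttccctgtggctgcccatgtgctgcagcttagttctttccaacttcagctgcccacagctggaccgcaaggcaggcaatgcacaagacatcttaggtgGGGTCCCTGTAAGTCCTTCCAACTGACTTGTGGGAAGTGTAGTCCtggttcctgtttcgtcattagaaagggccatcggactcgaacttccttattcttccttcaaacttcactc
Zfp738, chr13:67683463-67683762: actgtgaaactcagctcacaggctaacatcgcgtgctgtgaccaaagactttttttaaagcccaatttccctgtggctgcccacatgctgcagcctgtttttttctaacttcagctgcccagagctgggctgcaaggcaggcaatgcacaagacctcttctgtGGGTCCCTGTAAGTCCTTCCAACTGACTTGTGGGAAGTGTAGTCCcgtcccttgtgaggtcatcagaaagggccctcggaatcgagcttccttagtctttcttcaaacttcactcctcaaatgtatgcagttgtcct
Zfp874b, chr13:67484204-67484503: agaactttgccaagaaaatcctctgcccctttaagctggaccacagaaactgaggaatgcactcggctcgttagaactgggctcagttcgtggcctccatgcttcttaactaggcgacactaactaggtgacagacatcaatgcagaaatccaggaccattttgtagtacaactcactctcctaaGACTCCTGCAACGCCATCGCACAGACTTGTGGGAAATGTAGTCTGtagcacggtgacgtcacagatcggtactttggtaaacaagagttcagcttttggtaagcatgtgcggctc
Zfp874a, chr13:67451575-67451874: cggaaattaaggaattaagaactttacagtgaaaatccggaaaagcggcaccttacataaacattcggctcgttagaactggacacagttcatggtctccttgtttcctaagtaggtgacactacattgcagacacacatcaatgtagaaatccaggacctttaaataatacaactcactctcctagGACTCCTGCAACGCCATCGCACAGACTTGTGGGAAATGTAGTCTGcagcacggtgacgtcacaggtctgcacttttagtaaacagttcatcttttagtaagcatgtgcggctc
Zfp459, chr13:67421369-67421668: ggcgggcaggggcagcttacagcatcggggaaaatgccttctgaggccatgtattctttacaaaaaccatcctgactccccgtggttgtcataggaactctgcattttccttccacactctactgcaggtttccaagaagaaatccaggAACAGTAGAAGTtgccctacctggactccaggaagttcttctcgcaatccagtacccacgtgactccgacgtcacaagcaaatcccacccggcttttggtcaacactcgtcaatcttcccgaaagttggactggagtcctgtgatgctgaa

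The promoters of Zfp729a and Zfp738 were identical at 77.1% of aligned positions and shared an unbroken stretch of 45 bases, which no other of the 27025 promoters of the table holds. Those of Zfp874b and Zfp874a were identical at 75.3% and also shared 45 bases, again held by that pair alone. Zfp459 shared no more than 12 bases with any other gene of the run, and Zfp708 likewise. Zfp459 reached 12 bases with each of Zfp456, Zfp708, Zfp874a and Zfp874b. Its stretch in capitals is the one shared with Zfp456, and Zfp429 also holds it. Between Zfp459 and Zfp729a the identity was 51.6%, with a longest shared stretch of 8 bases. Over the 91 pairs among the 14 genes of the run with a promoter in the table, the median identity was 53.3% and the median longest shared stretch was 12 bases. Zfp729b, the namesake of Zfp729a, is the gene of the run without one, so its promoter was not compared. None of the 5 printed promoters holds GGGCGG, the core of a GC box, on either strand. Over the 173 of 210 genes with an entry, 48% of promoters hold it, against 35.8% for all 26852 other genes of the promoter table. The median number of CpG dinucleotides was 14 against 7. Those other genes were not matched to the 173 in kind, so the contrast is not particular to zinc finger genes. These counts describe letters in a fixed window, and say nothing of which factors bind there.

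The tissue was described with 8 genes of hippocampal neurons, among them Prox1, Wfs1 and Neurod6. All 8 were measured with a lowest mean intensity of 647, and 6 genes of the neighbouring thalamus had a lowest mean of 389. No filter was applied and no other tissue was compared, so these values do not test the origin of the RNA. All 8 had log2 fold changes above 0 (median 0.10), 2 had an unadjusted p under 0.05, and 0 were called, where 0.777% of all clusters were. Their summed intensity ran over 27983 to 30511 in MSN and 25712 to 30269 in ICR mice. Genes of the choroid plexus, which lies beside the hippocampus, varied more between mice, with sums of 9717 to 24071 in MSN and 7995 to 24058 in ICR, and all 8 of them had positive log2 fold changes (median 0.32) with 0 called. Of 7 astrocyte genes 2 were above 0 (median -0.07), 3 had an unadjusted p under 0.05 (Gfap -0.30, Aqp4 -0.23 and Aldh1l1 0.19) and 0 were called. Their summed intensity ran over 14757 to 16262 in MSN and 15802 to 18225 in ICR mice. Of 7 genes of oligodendrocyte precursors, with sums of 5980 to 6473 in MSN and 5653 to 6233 in ICR, 6 were above 0 and Pdgfra was called without overlap of the strains, at 1147 ± 45 in MSN and 958 ± 60 in ICR (SD, n = 6 each; log2 fold change 0.26, limma adjusted p = 0.0184). Lists for mature oligodendrocytes, microglia, endothelium and thalamus had 0 called. The part of any of these cell types in the values of the zinc finger genes was not tested. Array medians ran over 270 to 298 for all clusters, and over the 210 genes they were 400 to 437 in MSN and 410 to 426 in ICR mice. Correlations of log2 values were 0.991 to 0.995 within MSN, 0.988 to 0.994 within ICR and 0.988 to 0.993 between the strains. In whole tissue, fewer cells of a type and less RNA per cell cannot be told apart.

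MSN hippocampi differed from ICR hippocampi in few of these genes. At an adjusted p under 0.05 (limma with Benjamini-Hochberg adjustment over 23410 clusters), 3 of 210 were called, Zfp729a higher and Zfp459 and Zfp704 lower in MSN. That is 1.43% of them, beside 0.777% of all clusters tested, with 0.303% of all clusters called higher and 0.474% called lower. At an unadjusted p of 0.01 or less there were 10 genes (4.76%), 5 higher and 5 lower in MSN. All clusters gave 4.55%, of which 1.82% were higher and 2.73% lower. The values of the 6 MSN and 6 ICR mice did not overlap for 6 genes (2.86%), 3 higher and 3 lower. Among all clusters 1.44% had no overlap, with 0.568% higher and 0.867% lower. By these shares the zinc finger genes stood near the background for unadjusted p values and somewhat above it for calls and for values without overlap, on counts of 3 and 6 genes. Zfp459 and Zfp729a were known as called genes when the range was chosen, so these shares are no independent evidence about the family.

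The bulk of the family lay close to 0. The median log2 fold change was -0.009, with quartiles of -0.050 and 0.039, and the median over all clusters was -0.008. In 173 of 210 genes (82.4%) it was within 0.1 of 0, compared with 80.6% of all clusters. It was above 0 in 93 genes (44.3%) and below 0 in 117 (55.7%), close to the 45.5% and 54.5% of all clusters. The split depends on scaling: with each array scaled to the same median, 121 of the genes were above 0. The 131 genes numbered Zfp1 to Zfp399 had a median of -0.024, with 1 called (0.763%) and 3 without overlap (2.29%). The difference between these number ranges was not tested.

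**Figure D1:**
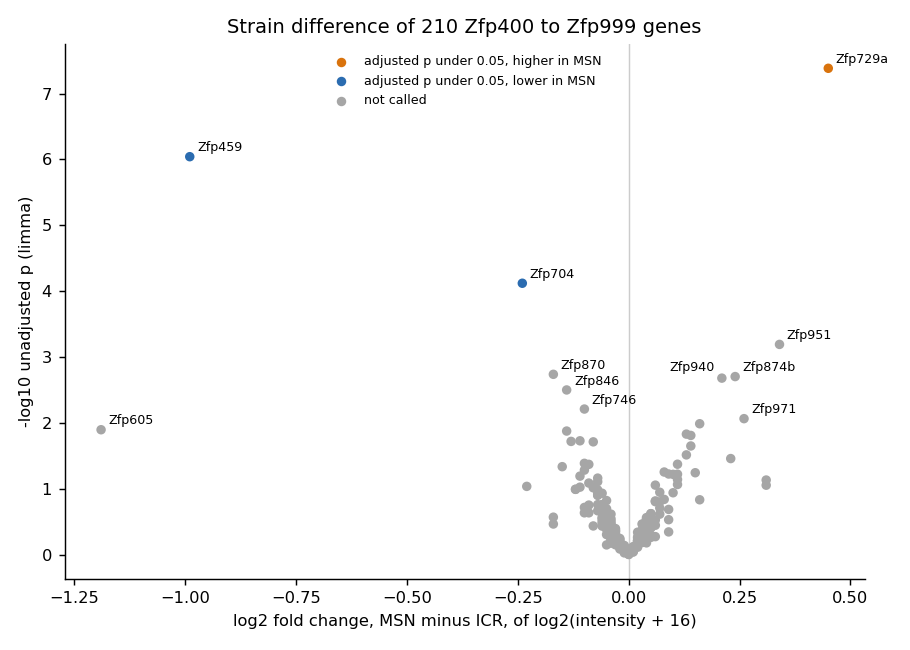
Each point is 1 of the 210 genes, with the log2 fold change (MSN minus ICR, of log2(intensity + 16)) across and -log10 of the unadjusted limma p upward. Zfp729a on the right and Zfp459 and Zfp704 on the left are the 3 called genes, and Zfp605 lies farthest left at -1.19 without a call.

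Zfp729a, a zinc finger gene of the chromosome 13 run, was the clearest difference. Its lowest, median and highest intensities were 1238, 1338 and 1454 in MSN mice and 923, 979 and 1050 in ICR mice. Every MSN mouse was above every ICR mouse. The means were 1341 ± 70.3 in MSN and 976 ± 43.2 in ICR (SD, n = 6 each), a fold change of 1.37 and a log2 fold change of 0.45 (SE 0.0423, limma adjusted p = 0.000323). The exact permutation test over mice gave p = 0.00216, two-sided, the smallest that 6 against 6 can give. Values without overlap always give this p, here and in the genes below, so it adds nothing to the separation itself.

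Zfp459, which lies in the same run with 6 genes between it and Zfp729a, went the other way. Its lowest, median and highest intensities were 93.1, 106 and 183 in MSN mice, against 220, 244 and 269 in ICR mice. The strains did not overlap, and the MSN value of 183 belonged to replicate 1, since the other 5 MSN mice lay between 93.1 and 117. The means were 117 ± 33.6 in MSN and 243 ± 20.5 in ICR (SD, n = 6 each). The log2 fold change was -0.99 (SE 0.120, limma adjusted p = 0.0023, exact permutation p = 0.00216). Without MSN replicate 1 or any other single array, or under the other settings tried, it ranged over -1.12 to -0.78.

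Zfp704 lies on chromosome 3 and belongs to none of the runs. It had 547, 586 and 614 as lowest, median and highest intensity in MSN mice and 647, 691 and 747 in ICR mice. The 6 MSN values all lay below the 6 ICR values, and the SDs were 26.6 in MSN and 37.4 in ICR. The log2 fold change was -0.24 (SE 0.0429, limma adjusted p = 0.0209, exact permutation p = 0.00216). This call was lost when arrays were scaled to the same median (adjusted p = 0.0514) and in the fit with replicate number as a block (adjusted p = 0.107, both limma). Among the 10 genes on each side, 19 were measured. One neighbour was called there, Zc2hc1a, with 1299 ± 67 in MSN and 1546 ± 116 in ICR (log2 fold change -0.25, limma adjusted p = 0.0398). Stmn2, a tubulin-binding protein of growing axons, did not overlap between the strains and missed the threshold at 6390 ± 174 in MSN and 7208 ± 366 in ICR (log2 fold change -0.17, limma adjusted p = 0.057).

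A further 3 genes showed no overlap between the strains without passing the adjusted threshold. Zfp951 had 152, 173 and 235 as lowest, median and highest intensity in MSN and 129, 138 and 145 in ICR (log2 fold change 0.34, limma adjusted p = 0.0617). The 235 was MSN replicate 2, and the other 5 MSN mice lay between 152 and 179, still above every ICR mouse. Zfp951 was called in 6 of 22 other settings and left-out arrays, including the limma fits without MSN replicate 1 (adjusted p = 0.0449) and without MSN replicate 2 (adjusted p = 0.0296). In the rest it was not called, with limma adjusted p values of up to 0.16, on untransformed intensities. Zfp874b had 260, 268 and 298 in MSN and 188, 234 and 255 in ICR (0.24, limma adjusted p = 0.106), so that the strains were separated by the step between 255 and 260. Zfp846 was lower, with 535, 563 and 580 in MSN and 585, 612 and 652 in ICR (-0.14, limma adjusted p = 0.135). All 3 had the smallest exact permutation p of 0.00216, as did the other genes without overlap. Lack of overlap alone fixes that p, so it is no further support.

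The remaining 4 genes at an unadjusted p of 0.01 or less had values that overlapped. Zfp746, known as PARIS, is a substrate of the ubiquitin ligase parkin and a repressor of the mitochondrial coactivator PGC-1alpha. It had 861, 900 and 940 as lowest, median and highest intensity in MSN, against 938, 976 and 991 in ICR (log2 fold change -0.10, limma adjusted p = 0.178), and a single ICR mouse lay below the highest MSN mouse. Zfp870 had 296, 313 and 342 in MSN and 333, 351 and 377 in ICR (-0.17, limma adjusted p = 0.102). Zfp940 had 582, 663 and 733 in MSN and 529, 569 and 614 in ICR (0.21, limma adjusted p = 0.108). Zfp971 had 2442, 2761 and 3052 in MSN and 1804, 2358 and 2605 in ICR (0.26, limma adjusted p = 0.206). In Zfp940 and Zfp971 the median of the MSN mice was above the highest ICR mouse, and in Zfp870 the median of the MSN mice was below the lowest ICR mouse.

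**Figure D2:**
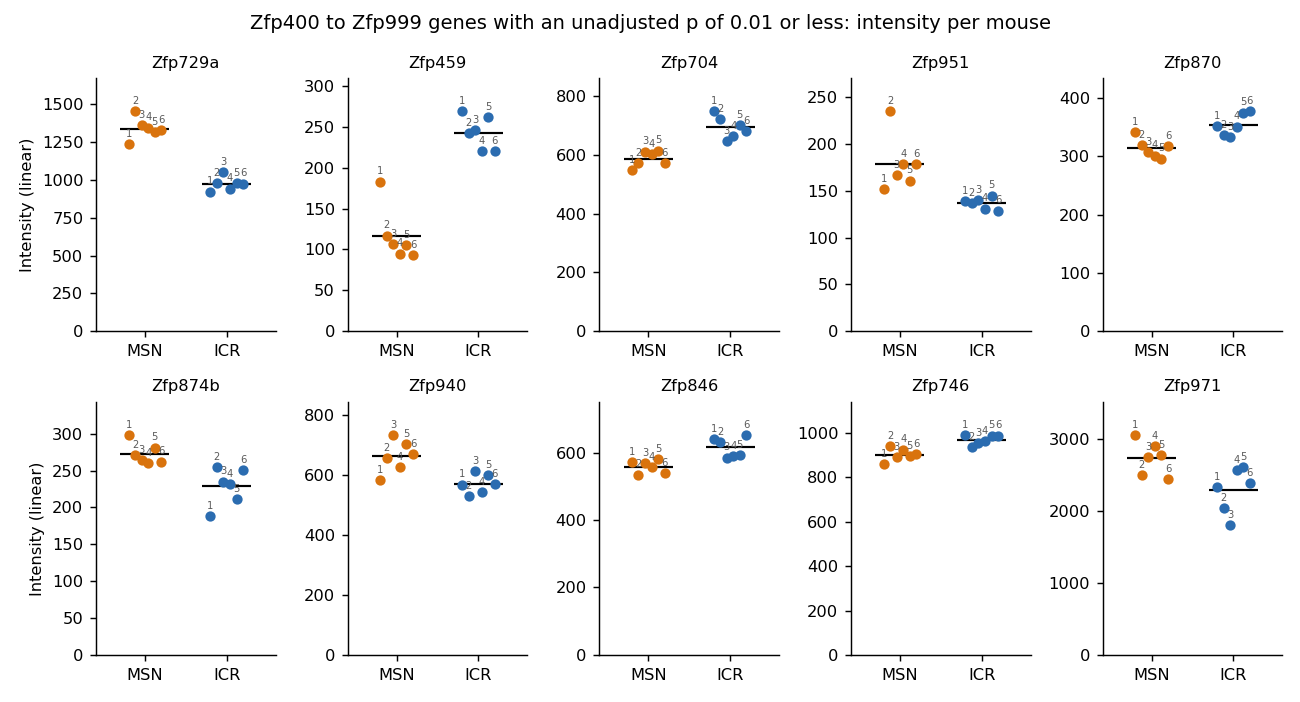
Intensity (linear, axis from 0) of each mouse for the 10 genes at an unadjusted p of 0.01 or less, with MSN in orange on the left and ICR in blue on the right, replicate numbers above the points and the mean as a line. Zfp729a, Zfp459 and Zfp704 show a clear step between the strains, and the single MSN mice at 183 in Zfp459 and 235 in Zfp951 stand above the rest of their strain.

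The 2 called genes on chromosome 13 lay in a run where, of the others, Zfp874b alone reached an unadjusted p of 0.01 or less. In gene order the run reads Zfp708, Zfp759, Zfp455, Zfp458, Zfp457, Zfp595, Zfp953, Zfp456, Zfp459, Zfp874a, Zfp874b, Zfp748, Zfp729b, Zfp729a and Zfp738. Among the 13 genes other than Zfp459 and Zfp729a, 11 had a log2 fold change within 0.1 of 0 in their brightest cluster and 0 were called. The median over all 15 was 0.01, with 8 of 15 above 0.

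Genes of the run that resemble the differing ones in name or promoter were not called. Zfp729b, the namesake of Zfp729a, had means of 611 ± 33.6 in MSN and 634 ± 33.7 in ICR (SD, n = 6 each), a log2 fold change of -0.05 (limma adjusted p = 0.688). Among the 14 genes of the run with a promoter in the table, which leave out Zfp729b, Zfp738 is the closest match to Zfp729a. It had 765 ± 24.1 in MSN and 793 ± 61.8 in ICR (-0.05, limma adjusted p = 0.723). That is its brightest cluster, and its dimmer clusters had -0.24 (limma adjusted p = 0.483) and -0.19 (limma adjusted p = 0.502). Zfp874a, the closest match to Zfp874b by promoter, had 274 ± 15.1 in MSN and 283 ± 22 in ICR (-0.04, limma adjusted p = 0.776). Zfp456, the neighbour before Zfp459, had 315 ± 11.5 in MSN and 331 ± 22.1 in ICR (-0.06, limma adjusted p = 0.598). Whether these fold changes differ from those of Zfp729a, Zfp874b and Zfp459 was not tested as such.

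Zfp457 was the one further gene of the run, beside Zfp874b, outside 0.1 of 0. It had 378, 419 and 469 as lowest, median and highest intensity in MSN and 439, 469 and 478 in ICR (-0.14, limma adjusted p = 0.245), and MSN replicates 2, 5 and 6 lay below every ICR mouse while the other MSN mice did not clearly do so. The run spans 20 protein-coding genes, and 4 that are not among the 210 were measured there. Rsl1 had 493 ± 51.1 in MSN and 478 ± 28.9 in ICR (SD, n = 6 each; 0.04, limma adjusted p = 0.833), and Rslcan18, another KRAB zinc finger gene, 328 ± 12.1 in MSN and 350 ± 12.2 in ICR (-0.09, limma adjusted p = 0.311). Zfp58 (0.08) and Zfp87 (-0.06) were not called either. Probe sequences were not used here, so whether a cluster also detects a near copy was not tested. Sequence variants under the probes, between the strains or among mice of a strain, were not tested either, for any of the 210 genes. The paper names such variants as a limit that it could not exclude, although the array spreads many probes along each gene.

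**Figure D3:**
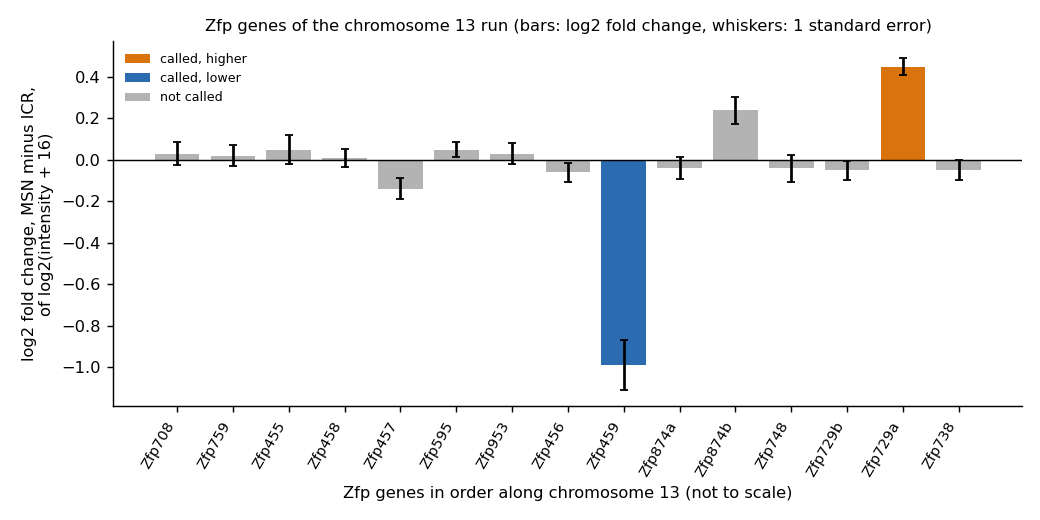
Bars give the log2 fold change (MSN minus ICR, of log2(intensity + 16)) of the 15 zinc finger genes of the chromosome 13 run in gene order, and whiskers give 1 standard error from limma. Zfp459 at -0.99 and Zfp729a at 0.45 are the called genes, Zfp874b reaches 0.24 and Zfp457 -0.14, and the other 11 lie within 0.1 of 0.

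Chromosomes 7 and 17 held more of these genes than chromosome 13, without a call. Chromosome 7 held 58 of the 210 genes and chromosome 17 held 24, with 0 called on either, while all genes placed there were called at 0.231% on chromosome 7 and 1.07% on chromosome 17. Chromosome 13 held 17 of the genes and the 2 calls, and over all placed genes of that chromosome 15 of 732 (2.05%) were called. The run from Zfp677 to Zfp945 on chromosome 17 had 12 genes with log2 fold changes of -0.23 to 0.23 and a median of 0.03. In the run of 6 from Zfp628 to Zfp580 on chromosome 7 all were below 0, between -0.07 and -0.01. No run other than the one on chromosome 13 held a called gene.

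The largest log2 fold change of the 210 belonged to a gene that was not called. Zfp605, on chromosome 5, had 954, 162, 875, 917, 846 and 191 in MSN replicates 1 to 6, and 796, 1331, 1273, 1286, 1449 and 1320 in ICR replicates 1 to 6. MSN replicates 2 and 6 were far below the other 4 MSN mice, which lay between 846 and 954, and ICR replicate 1 lay nearer to those 4 than to its own strain. The log2 fold change was -1.19 (SE 0.417, limma adjusted p = 0.241), the exact permutation p was 0.0108, and the SD on the log2 scale was 1.17 in MSN and 0.305 in ICR. Over all settings and left-out arrays the log2 fold change stayed between -1.36 and -0.87 and was not called. Of 13 measured neighbours within 10 genes on each side, Crlf2, a cytokine receptor subunit, was called, with 442 ± 24 in MSN and 529 ± 35.1 in ICR (SD, n = 6 each; log2 fold change -0.25, limma adjusted p = 0.0305).

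Zfp961, on chromosome 8, showed a split among ICR mice that MSN mice lacked. Its intensities were 688, 636, 677, 653, 669 and 633 in MSN replicates 1 to 6 and 414, 777, 371, 686, 379 and 698 in ICR replicates 1 to 6. In ICR, replicates 1, 3 and 5 lay between 371 and 414 and replicates 2, 4 and 6 between 686 and 777, with the MSN mice close to the higher level. The SD on the log2 scale was 0.048 in MSN and 0.481 in ICR, and the log2 fold change of 0.31 was not called (limma adjusted p = 0.481). None of 16 measured neighbours within 10 genes on each side was called.

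Zfp521, a cofactor of early B-cell factors that acts in neural differentiation, stood out in a single ICR mouse. Its intensities were 457 to 599 in the 6 MSN mice, while ICR replicate 3 had 1120 and the other 5 ICR mice 468 to 592. The strains coincided apart from that mouse (log2 fold change -0.17, limma adjusted p = 0.73). ICR replicate 3 was also high for Zfp738, together with ICR replicate 6, and all 3 clusters of that gene showed it. The brightest Zfp738 cluster had 883 and 859 in these 2 mice, against 741 to 801 in MSN and 737 to 773 in the other ICR mice. The second had 838 and 768, with 441 to 520 in MSN, and the third 343 and 355, with 219 to 254 in MSN. Each of the 3 clusters ranked these 2 ICR mice highest.

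**Figure D4:**
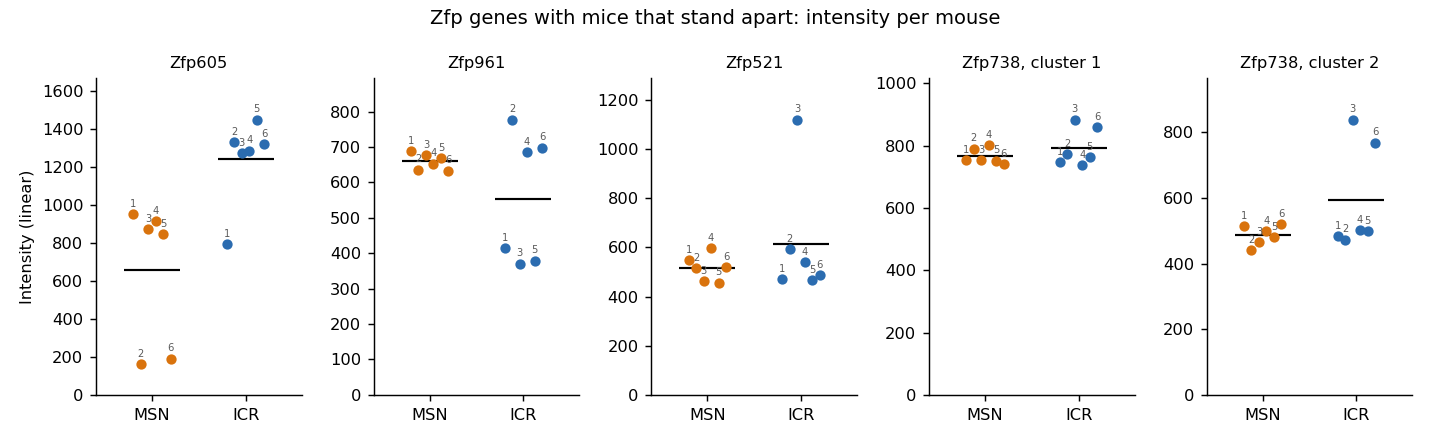
Intensity (linear, axis from 0) of each mouse for Zfp605, Zfp961, Zfp521 and the brighter clusters of Zfp738, with MSN in orange on the left and ICR in blue on the right, replicate numbers above the points and the mean as a line. Zfp605 splits the MSN mice into 2 near 162 to 191 and 4 at 846 to 954, Zfp961 splits the ICR mice into 3 and 3, and ICR replicate 3 is high in Zfp521 and Zfp738.

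Over the whole family the spread between mice was close to equal in the inbred and the outbred strain. The median SD on the log2 scale was 0.0807 in MSN and 0.0765 in ICR, and over all clusters the medians were 0.0868 in MSN and 0.0855 in ICR. The SD was larger in MSN for 121 genes (57.6%) and larger in ICR for 89, while over all clusters it was larger in MSN for 11713 of 23410. An SD above 0.25 occurred for 6 genes in MSN (2.86%, against 1.73% of all clusters) and for 6 genes in ICR (2.86%, against 2.8%). Some of these are dim, and their log2 values carry little. Zfp979 had 6.22 to 24.5 in MSN and 12.1 to 18.8 in ICR. Zfp980 had 7.4 to 22.6 in MSN and 7.39 to 23.7 in ICR. Zfp600 had 25.2 to 47.3 in MSN and 16.9 to 48.9 in ICR. The ranges overlapped widely in all 3. Of the brighter ones, Zfp939 had 314 to 550 in MSN and 324 to 432 in ICR, and Zfp983 had 445 to 750 in MSN and 487 to 802 in ICR.

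**Figure D5:**
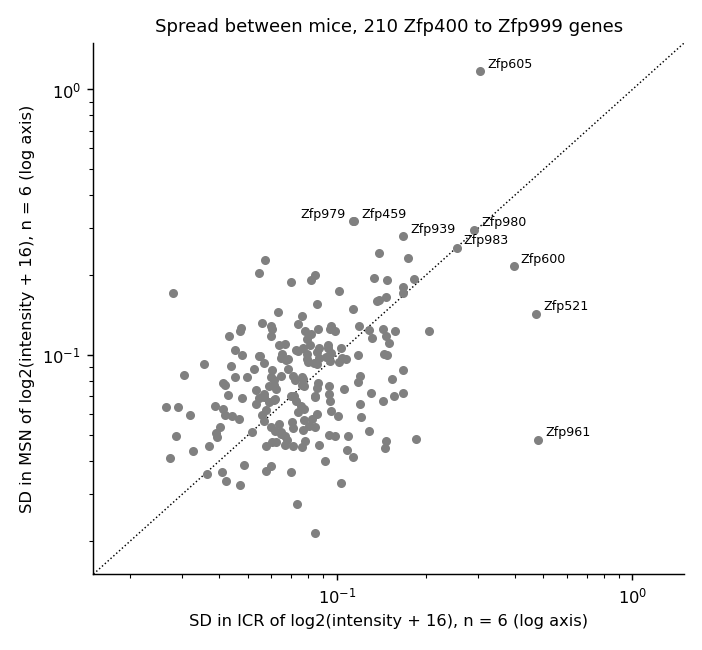
Each point is 1 of the 210 genes, with the SD of log2(intensity + 16) over 6 ICR mice across and over 6 MSN mice upward, both on log axes, and the dotted line marks equal SDs. Zfp605 lies at 1.17 in MSN and 0.305 in ICR, Zfp961 at 0.048 in MSN and 0.481 in ICR, and genes with an SD above 0.25 in either strain are named.

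One gene with several single-gene clusters gave different answers by cluster. For Zfp672 the brighter cluster had 342 ± 16.8 in MSN and 350 ± 15.2 in ICR (SD, n = 6 each; log2 fold change -0.03, limma adjusted p = 0.771). Its dimmer cluster had 114, 128 and 142 as lowest, median and highest intensity in MSN, against 153, 160 and 172 in ICR. The dimmer cluster did not overlap between the strains (log2 fold change -0.30, limma adjusted p = 0.0184), and counting genes by their dimmest cluster would add Zfp672 to the called genes, making 4. Its call was lost in the fit with replicate number as a block (limma adjusted p = 0.079). None of 15 measured neighbours of Zfp672 was called. Zfp788 has a pair of clusters with identical values in all 12 arrays, and it was counted once.

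Genes were also read by what their proteins are known to do. Of 10 with roles in the nervous system, 0 were called and 2 had an unadjusted p under 0.05, where all clusters gave 0.777% and 12.7%. Zfp804a, the mouse counterpart of ZNF804A, a gene associated with schizophrenia and bipolar disorder in people, had 1182, 1245 and 1355 as lowest, median and highest intensity in MSN mice and 1007, 1159 and 1241 in ICR mice. Its strains overlapped over a part of their ranges (log2 fold change 0.16, SE 0.0539, limma adjusted p = 0.222, exact permutation p = 0.00866). Its paralog Zfp804b had 178 ± 9.91 in MSN and 200 ± 26 in ICR (SD, n = 6 each; -0.15, limma adjusted p = 0.383).

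The other genes of this group, Zfp521 apart, had log2 fold changes within 0.1 of 0. Zfp423, which acts with early B-cell factors in cerebellar and fat cell development, had 443 ± 26.4 in MSN and 442 ± 14.3 in ICR (SD, n = 6 each; 0.00, limma adjusted p = 0.985). Zfp536, a repressor of neuronal differentiation, had 489 ± 35.1 in MSN and 464 ± 21.6 in ICR (0.07, limma adjusted p = 0.58). The log2 fold changes were 0.07 for Zfp488, an oligodendrocyte regulator, 0.05 for Zfp462, 0.02 for Zfp503, which acts in striatal development, -0.03 for Zfp703 and -0.04 for the X-linked Zfp711.

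Of the 6 genes listed for silencing transposable elements or keeping imprints, 5 had a single-gene cluster (all but Zfp932) and 0 were called. Of all clusters, 0.777% were called and 12.7% had an unadjusted p under 0.05. Zfp809, which targets murine leukemia virus-like elements, had 989 ± 42.3 in MSN and 974 ± 59.9 in ICR (SD, n = 6 each; log2 fold change 0.02, limma adjusted p = 0.872). Zfp445, which maintains imprints, had 1215 ± 42.7 in MSN and 1291 ± 58.7 in ICR (-0.09, limma adjusted p = 0.371) and was the only one of the 5 with an unadjusted p under 0.05. Zfp568, which represses a placental promoter of Igf2, had 174 ± 9.01 in MSN and 186 ± 13.2 in ICR (-0.09, limma adjusted p = 0.467). Zfp708 and Zfp819 lay at 0.03 and -0.00.

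The group of 11 chromatin and transcription cofactors had 0 called, where 0.777% of all clusters were. It had 0 at an unadjusted p under 0.05, against 12.7% of all clusters, and 3 above 0, against 45.5%. The largest difference there was that of Zfp687, at 818 ± 57.2 in MSN and 883 ± 73.2 in ICR (SD, n = 6 each; -0.11, limma adjusted p = 0.493). Its partners Zfp592 and Zfp532, which bind the same chromatin reader, had 0.01 and 0.02. Zfp451, a SUMO ligase, had -0.07, and Zfp644, a partner of the G9a methyltransferase, -0.06. Zfp410, an activator of Chd4, had -0.02. The 5 genes that act on RNA or ribosomes had 0 called and 0 at an unadjusted p under 0.05, from -0.04 for Zfp622, a factor of the large ribosomal subunit, to 0.09 for Zfp830. Zfp598, a ubiquitin ligase that marks collided ribosomes, had 507 ± 30.3 in MSN and 494 ± 10.7 in ICR (0.03, limma adjusted p = 0.777).

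The corepressors that KRAB zinc finger proteins recruit, and enzymes that work with them, were read from a list of 20, of which 18 were measured. One was called and 2 had an unadjusted p under 0.05, where all clusters gave 0.777% and 12.7%. In 7 the log2 fold change was above 0, and the median was -0.02. Trim28, the scaffold itself, had 985 ± 25.4 in MSN and 993 ± 30.2 in ICR (SD, n = 6 each; -0.01, limma adjusted p = 0.914). Setdb1 had 795 ± 24 in MSN and 827 ± 27.9 in ICR (-0.06, limma adjusted p = 0.526), and its partner Atf7ip 2366 ± 89.9 in MSN and 2532 ± 74.2 in ICR (-0.10, limma adjusted p = 0.258). Dnmt1, the maintenance DNA methyltransferase, was the called gene, with 750 ± 30.1 in MSN and 853 ± 36.8 in ICR (-0.18, SE 0.0388, limma adjusted p = 0.0474). That call was lost in 10 of the 12 fits that left out 1 array, with adjusted p values of up to 0.119.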

How the data were processed

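Total RNA of 12 hippocampi was measured on Affymetrix Mouse Gene 1.0 ST arrays. The authors summarised probes with PLIER and GC-bin background correction in Affymetrix Power Tools 1.12.0, and deposited 1 linear intensity per transcript cluster and array for 35556 clusters. No genome build for this step, scan date or batch is given in the sources used here. Of these clusters, 23410 have a gene in the platform annotation. RefSeq gene IDs were found for 21698 of those with a single gene.

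Strains were compared on log2(intensity + 16) by a linear model with strain as its term (R 4.3.3, limma 3.58.1, functions lmFit and eBayes), with Benjamini-Hochberg adjustment over 23410 clusters. The fit was tested on simulated data, drawn for each cluster with normal noise of the same SD in both strains. Genes with split or outlying mice, such as Zfp605, are not of that kind. Two-sided exact permutation tests used all 924 splits of the mice. The number of arrays limits the precision. The genes and lists, and the rule for naming genes, were chosen with earlier results of these data known. Named were all genes called, at an unadjusted p of 0.01 or less or without overlap, the widest SDs, the role lists, the run around called genes, and genes whose clusters disagree or are identical. Zfp939, Zfp980 and Zfp983 were named after their values were seen. Alternatives changed the scale, pseudocount, normalization, variance model, array weights, filter, clusters tested, cluster per gene, replicate block and single arrays. Protein sequences were not used here, so genes were not grouped by protein domain. Zfp640 could not be placed on a chromosome.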

Additional observations from a re-analysis of the deposited data

Results flagged for a closer look

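In 6 named clusters, 1 mouse lay farther from the rest of its strain than Dixon's 95% value for 6 samples allows. Zfp459 had 183 in MSN replicate 1, with the other MSN mice at 93.1 to 117. Zfp951 had 235 in MSN replicate 2, with the others at 152 to 179. In ICR, Zfp605 had 796 in replicate 1 (others 1273 to 1449), Zfp521 had 1120 in replicate 3 (others 468 to 592), Zfp532 had 884 in replicate 3 (others 950 to 965), and the brighter cluster of Zfp672 had 321 in replicate 3 (others 351 to 365). ICR replicate 3 accounts for 3 of the 6, but these were picked by the rule for naming genes, in part for a wide SD. That share therefore does not carry over to all 210 genes. Over the 420 groups of 6 mice that the 210 genes give, 17 lay past that value, 7 in MSN and 10 in ICR, and chance flags about 1 in 20 groups.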

How the results depend on the processing

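The count of 3 called genes was 5 with array weights, which added Zfp870 and Zfp951, and stayed between 2 and 4 under the other settings. Zfp729a (adjusted p 1.72e-05 to 0.00364 over other settings and left-out arrays) and Zfp459 (2.95e-06 to 0.00843) were called in every limma fit that held them; Zfp459 falls below the filter on clusters above the median mean. With that filter 117 of the genes were tested and 3, not 6, had no overlap. Leaving out single arrays gave 3 to 4 calls, 9 to 13 genes at an unadjusted p of 0.01 or less, 6 to 8 without overlap and medians of -0.017 to -0.001. Scaling to the same median moved the median over all clusters to 0.017 and that of the 210 genes to 0.017, with 121 above 0, and quantile normalization gave 113 above 0, against 93 as deposited. Calls over all clusters ranged more widely, with 182 as reported, 315 with array weights, 279 with a pseudocount of 64, 273 with trend and robust variances and 91 without MSN replicate 4. Replicate numbers did not pair the mice (correlations -0.1136 to 0.1324, and no mouse matched its own number best); with replicate number as a block 2 genes were called, Zfp459 and Zfp729a, and 42 clusters in all. Dnmt1 was not called under 5 other settings. Over 61 named clusters and 1378 values, 1353 kept their side of the threshold, 18 lost it, 7 gained it and 0 called values changed sign, while 15 clusters that were not called changed sign somewhere. The cause of these changes was not tested. Arrays of 6 mice per strain limit what small differences can show.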
